A study of Homo sapiens with 4 samples.

Results

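Hepatocyte identity transcription factors are the DNA-binding proteins that switch on and hold the gene programme of the liver cell. The set described here held 8 of them, HNF4A, FOXA1, FOXA2, FOXA3, ONECUT1, ONECUT2, PROX1 and GATA4, chosen by name as liver factors of the HNF, FOXA, ONECUT, PROX and GATA groups, out of 46427 genes in the tables. All 8 were found, each on 1 row of every table. HNF4A is a nuclear receptor that binds the promoters of many genes of differentiated hepatocytes. FOXA1, FOXA2 and FOXA3 are forkhead factors, of which FOXA1 and FOXA2 act with GATA4 as pioneer factors that open liver genes in the early endoderm. ONECUT1, also known as HNF6, and its relative ONECUT2 act in the growth of the liver bud and in the choice between hepatocyte and bile duct cell. PROX1 is a homeobox factor needed for hepatoblasts to move out of the bud. These factors bind each other's promoters, and HNF4A, FOXA2 and ONECUT1 are textbook members of one cross-regulating network.

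The RNA came from Huh7 and HepG2, established human liver tumour lines that the labels give as hepatocellular carcinoma of wild-type genotype. NC-siRNA, a negative control, or COP1-siRNA, which targets COP1, was given to each line at 20 nM by lipofection for 5 h, and cells were harvested after 48 h. COP1 is an E3 ubiquitin ligase, which marks other proteins for breakdown. There was 1 library per line and siRNA, 4 in all, so no difference below has a replicate check, and no p-value or SD is given. Only 1 siRNA against COP1 was used, and knockdown was partial: in Huh7 the COP1 level was 19.7 TPM with the control and 6.18 TPM with COP1-siRNA (31.4% left), past the 2-fold threshold used below. In HepG2 the levels were 26.9 and 16.1 TPM (59.9% left), a difference that did not reach that threshold. The 2 lines therefore differed in how far COP1 was lowered, and no comparison of their responses below was adjusted for it.

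Levels are given in TPM, a unit of relative transcript abundance scaled for transcript length and for the total of each library. Differences are log2((TPM + 1)/(TPM + 1)), which understates the change of genes at a few TPM. A gene counted as tested in a comparison if it reached 1 TPM in at least 1 of the 2 libraries, and 2-fold was the threshold for calling it higher or lower. The tables hold no read counts, so the counting error of a value is unknown. The mean read coverage over the bases of the 8 factors ran from 0.855 reads per base for ONECUT1 in HepG2 cells with NC-siRNA to 194 reads per base for FOXA2 in Huh7 cells with NC-siRNA. In bulk RNA, fewer cells with a transcript and less transcript in each cell cannot be told apart.

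The HNF4A gene (Gene ID 3172, chr20:44355699-44434596, plus strand of GRCh38) has 2 annotated starts in RefSeq, known as P1 and P2 in the literature. The 250 bases before each start are shown because both hold letters that other members of the set can bind. Capitals mark ATTGAT (reverse ATCAAT), a core of ONECUT sites, and AGATAA (reverse TTATCT), a core of GATA sites, searched on both strands. The windows are from RefSeq GRCh38.p14, chr20:44355449-44355698 for the upstream start and chr20:44400989-44401238 for the downstream start, both on the plus strand.
HNF4A upstream start: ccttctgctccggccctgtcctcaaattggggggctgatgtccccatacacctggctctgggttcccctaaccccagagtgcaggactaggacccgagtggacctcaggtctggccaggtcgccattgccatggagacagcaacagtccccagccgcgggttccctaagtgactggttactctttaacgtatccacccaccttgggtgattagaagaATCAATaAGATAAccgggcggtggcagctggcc
HNF4A downstream start: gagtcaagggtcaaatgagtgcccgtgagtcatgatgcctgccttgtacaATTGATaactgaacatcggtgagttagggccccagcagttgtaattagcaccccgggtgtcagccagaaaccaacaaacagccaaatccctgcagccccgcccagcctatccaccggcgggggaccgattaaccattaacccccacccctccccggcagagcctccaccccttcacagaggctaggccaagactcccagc

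The upstream window held ATCAAT from 33 to 28 bases and AGATAA from 26 to 21 bases before the start, next to each other and without overlap. The downstream window held ATTGAT from 200 to 195 bases before the start. Of all 35116 promoter windows of this length, 5.58% held the ONECUT letters and 9.17% the GATA letters on either strand. The forkhead letters TGTTTAC (2.98% of windows) and the HNF4 letters CAAAGTCCA (0.325% of windows) were in neither HNF4A window. Of the 6 windows available for the set, which belong to HNF4A, FOXA1, FOXA3, ONECUT1 and ONECUT2, the ONECUT letters were in 2, the GATA letters in 1 and the other motifs in 0. These matches describe the letters only. Only the exact letters named were searched, so a window without them may hold other forms of the same sites. The downstream window, for example, holds TGATAA, which differs from AGATAA in its first base and overlaps the marked ATTGAT. The gene-level tables do not divide HNF4A transcripts between the 2 starts.

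All 8 factors were expressed at higher levels in Huh7 than in HepG2, whichever siRNA was used. With NC-siRNA, the median of the 8 was 47.5 TPM in Huh7 and 3.56 TPM in HepG2, and with COP1-siRNA it was 36.9 and 3.82 TPM. Both Huh7 libraries lay above both HepG2 libraries for 8 of 8 factors, against 31.0% of the 15486 genes that reached 1 TPM in any library. The difference was at least 2-fold for 8 of 8 with either siRNA, where 14.7% of the 15055 tested genes were called higher and 27.9% lower with NC-siRNA, and 14.0% higher and 26.0% lower of 15126 with COP1-siRNA. ONECUT1 was under 1 TPM in both HepG2 libraries and met the minimum only through Huh7, so its direction was fixed by the filter. The other 7 reached 1 TPM in every library. The median log2 difference of the 8 was 2.91 with NC-siRNA and 2.42 with COP1-siRNA, beside medians of −0.37 and −0.35 over all tested genes. The comparisons of the lines use the same 4 libraries as the comparisons of the siRNAs and are not independent of them.

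**Figure D1:**
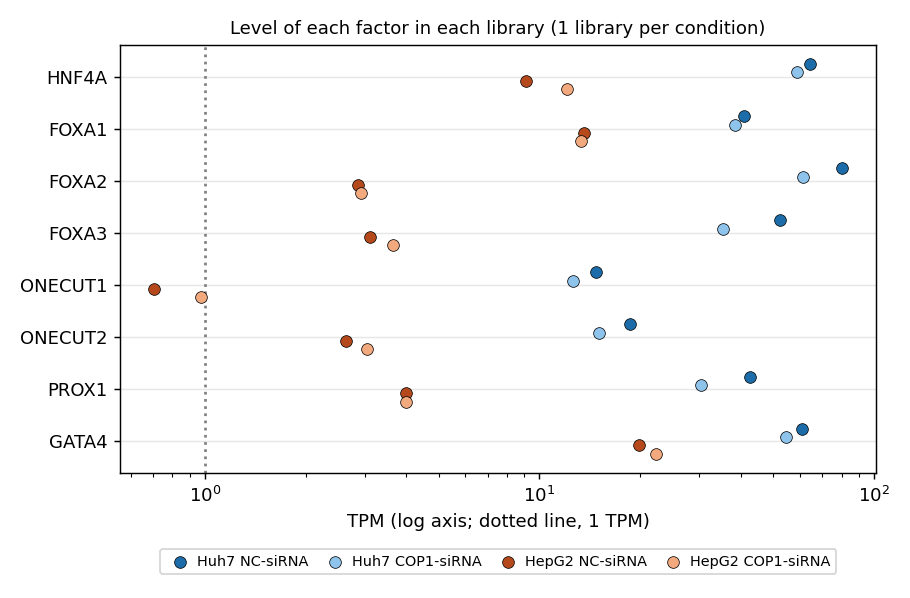
Level of each of the 8 factors in TPM (log axis) in each of the 4 libraries, 1 point per library, with a dotted line at 1 TPM. The 2 Huh7 points lie to the right of the 2 HepG2 points for every factor, and ONECUT1 in HepG2 lies just under 1 TPM.

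The level of HNF4A in Huh7 was 64.6 TPM with the control siRNA and 58.9 TPM after COP1 depletion. In HepG2 the 2 values were 9.13 and 12.1 TPM. Huh7 thus held 7.07 times the HepG2 level with NC-siRNA and 4.87 times with COP1-siRNA, as plain ratios of TPM. HNF4G, the close paralogue of HNF4A, was low in all libraries, at 5.17 and 4.37 TPM in Huh7 and 2.12 and 2.34 TPM in HepG2. HNF4A made up 92.6% and 93.1% of the summed TPM of both genes in Huh7 and 81.2% and 83.8% in HepG2.

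The HNF4A gene is crossed on the opposite strand by HNF4A-AS1 (chr20:44377743-44395706), a long noncoding RNA. HNF4A-AS1 was at 0 and 0.500 TPM in Huh7 with NC-siRNA and COP1-siRNA and at 2.38 and 2.46 TPM in HepG2. Its order between the lines was opposite to that of HNF4A, with log2 differences of −1.76 and −1.21. The library kit kept the strand, but how reads of overlapping genes were divided is not given in the sources used here, so values of the pair are less certain. The same holds for PROX1 and its antisense gene PROX1-AS1, which was at 1.15 and 0.789 TPM in Huh7 and 0.2499 and 0.294 TPM in HepG2, and for FOXA1 and the opposite-strand gene TTC6, which was at most 0.637 TPM.

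The 3 FOXA genes differed widely in how far the lines stood apart. FOXA2 (Gene ID 3170, chr20:22580998-22585490, minus strand) was at 80.1 and 61.3 TPM in Huh7 with NC-siRNA and COP1-siRNA. In HepG2 it was at 2.87 and 2.92 TPM. Its NC-siRNA ratio of 27.9 between the lines was the largest of the 8 factors, and 0.671% of tested genes had a higher log2 difference. FOXA3 (Gene ID 3171, chr19:45864326-45873797, plus strand), which is turned on later in liver development than the others, was at 52.3 and 35.4 TPM in Huh7 and 3.12 and 3.64 TPM in HepG2. FOXA1 (Gene ID 3169, chr14:37589552-37595249, minus strand) was at 40.7 and 38.4 TPM in Huh7 and 13.6 and 13.3 TPM in HepG2. Its NC-siRNA ratio of 2.99 was the smallest of the set, and 9.01% of tested genes had a higher log2 difference.

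The make-up of the family differed between the lines accordingly. FOXA2 was the most abundant FOXA transcript in Huh7, with 46.2% of the summed FOXA level with NC-siRNA and 45.4% with COP1-siRNA. FOXA1 was the most abundant in HepG2, with 69.4% and 66.9%, whereas FOXA2 held 14.7% in both HepG2 libraries. The summed FOXA level was 173 and 135 TPM in Huh7 and 19.6 and 19.8 TPM in HepG2.

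**Figure D2:**
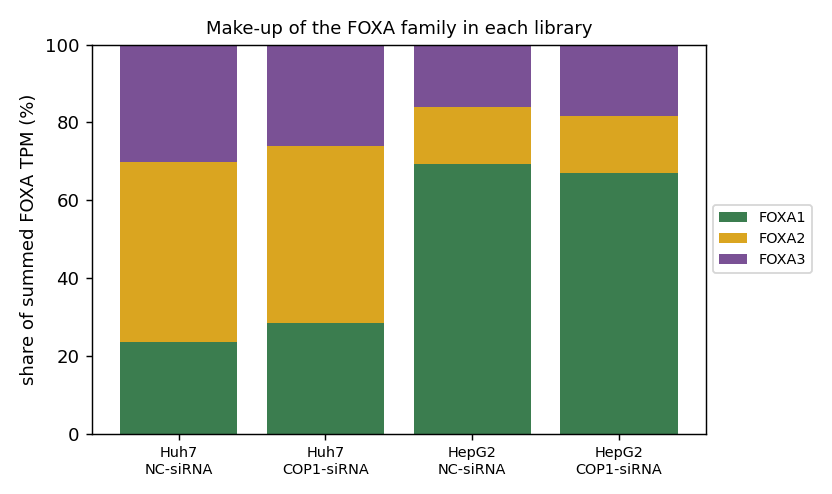
Share in percent of FOXA1, FOXA2 and FOXA3 in their summed TPM, 1 stacked bar per library. FOXA2 is the largest segment in both Huh7 libraries and FOXA1 in both HepG2 libraries.

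The noncoding gene LINC00261 (chr20:22560553-22578642, minus strand) lies 2355 bases from FOXA2 with 0 genes between them. It was at 91.8 and 68.6 TPM in Huh7 with NC-siRNA and COP1-siRNA and at 1.67 and 2.05 TPM in HepG2. Its log2 differences between the lines were 5.12 and 4.51, beside 4.39 and 3.99 for FOXA2, so both neighbours were high in Huh7 and low in HepG2.

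ONECUT1 and ONECUT2 were the least abundant of the 8 in Huh7. ONECUT1 (Gene ID 3175, chr15:52755053-52790336, minus strand) was at 14.7 and 12.6 TPM in Huh7 with NC-siRNA and COP1-siRNA. In HepG2 it was at 0.706 and 0.973 TPM, under the 1 TPM needed to be tested for the siRNA in that line. ONECUT2 (Gene ID 9480, chr18:57435374-57491298, plus strand) was at 18.7 and 15.1 TPM in Huh7 and 2.65 and 3.05 TPM in HepG2. ONECUT1 made up 43.9% and 45.5% of the summed ONECUT level in Huh7 and 20.9% and 24.2% in HepG2, and ONECUT3 stayed below 0.1 TPM in all 4 libraries.

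PROX1 (Gene ID 5629, chr1:213983239-214041510, plus strand) was at 42.6 and 30.3 TPM in Huh7, in the same order of siRNAs. In HepG2 it was at 3.990 and 3.995 TPM, which is the same level. GATA4 (Gene ID 2626, chr8:11676931-11760002, plus strand) was at 60.9 and 54.4 TPM in Huh7 and at 19.9 and 22.3 TPM in HepG2, where it was the most abundant of the 8 by TPM. GATA4 was 3.06 times as high in Huh7 as in HepG2 with NC-siRNA, and PROX1 10.7 times. GATA6, the GATA paralogue that overlaps with GATA4 in early liver, was at 9.32 and 10.2 TPM in Huh7 and 14.1 and 15.2 TPM in HepG2. GATA4 accordingly held 86.7% and 84.2% of the sum of both in Huh7 and 58.6% and 59.4% in HepG2. GATA2 was at 43.9 and 37.5 TPM in Huh7 and 28.9 and 27.1 TPM in HepG2, and GATA3 at 5.11 and 4.20 TPM and 4.94 and 4.92 TPM. Of the paralogues listed for the families, 4 were tested (HNF4G, GATA2, GATA3 and GATA6), and 0 of 4 were past 2-fold between the lines on the log2(TPM + 1) scale. HNF4G was close to it with NC-siRNA, with a log2 difference of 0.98, and passed it with a pseudocount of 0.1 (1.25) and with median-of-ratios (1.18) or upper-quartile (1.15) scaling.

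**Figure D3:**
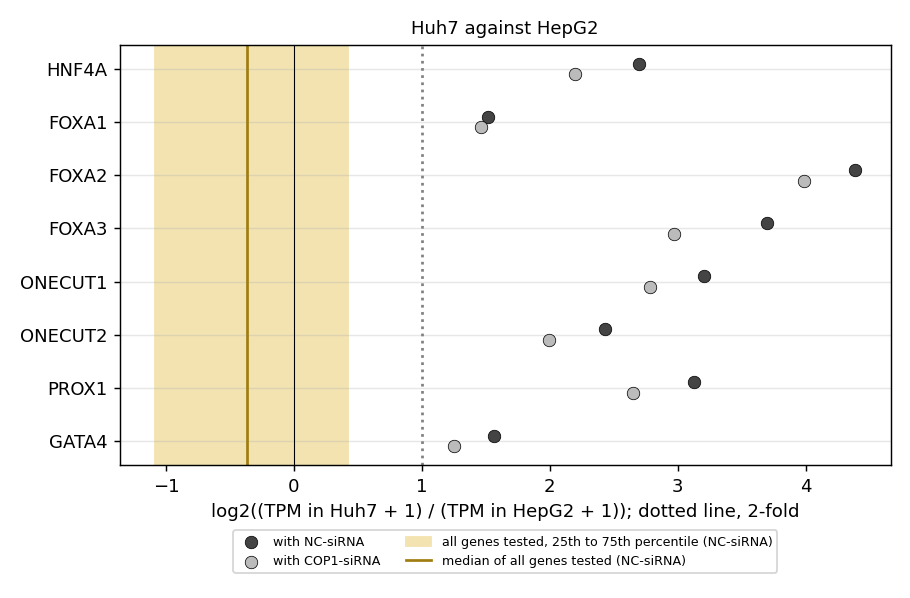
Log2 difference of each factor between Huh7 and HepG2 with NC-siRNA (dark) and COP1-siRNA (light), with the 25th to 75th percentile (band) and median (line) of all tested genes. All 16 points lie beyond the dotted 2-fold line, from 1.25 for GATA4 with COP1-siRNA to 4.39 for FOXA2 with NC-siRNA, and the light point is to the left of the dark one for every factor.

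The order of the 8 by TPM was different in the lines. With NC-siRNA it ran FOXA2, HNF4A, GATA4, FOXA3, PROX1, FOXA1, ONECUT2, ONECUT1 in Huh7 and GATA4, FOXA1, HNF4A, PROX1, FOXA3, FOXA2, ONECUT2, ONECUT1 in HepG2. FOXA2 was thus first in Huh7 and sixth in HepG2. Without replicates, the spread needed to separate neighbours in this order is unknown. The closest neighbours were PROX1 and FOXA1 in Huh7, with a ratio of 1.05, and FOXA2 and ONECUT2 in HepG2, with a ratio of 1.09, and both pairs changed places in the library with COP1-siRNA. With NC-siRNA the highest of the 8 was 5.44 times the lowest in Huh7 and 28.2 times in HepG2, where the lowest was ONECUT1 at under 1 TPM. Without ONECUT1 the ratios were 4.28 and 7.52. Against the median of expressed genes in the same library, 16.5 TPM in Huh7 and 15.3 TPM in HepG2 with NC-siRNA, 1 of 8 factors was below it in Huh7 and 7 of 8 in HepG2. The order depends on the measure. By mean read coverage with NC-siRNA, FOXA1 (30.5 reads per base) was above GATA4 (21.7) in HepG2. In Huh7, FOXA3 (140) and FOXA1 (98.7) were above HNF4A (84.5) and GATA4 (70.1).

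COP1 depletion moved none of the 8 factors past 2-fold in either line. In Huh7, where 0.638% of 13000 tested genes were at least 2-fold higher with COP1-siRNA and 0.446% at least 2-fold lower, 0 of 8 were called in either direction. In HepG2, where 0.540% of 14456 were higher and 0.394% lower, 0 of 7 tested were called. Below the threshold, the values leaned in opposite directions. The TPM was lower with COP1-siRNA for 8 of 8 factors in Huh7, against 50.1% of tested genes, and higher for 6 of 7 in HepG2, against 48.3%. The 6 include FOXA2 and PROX1, whose log2 differences of 0.02 and 0.0014 are too near 0 to give a direction. Among the 8 in Huh7, FOXA1 and HNF4A were also near 0, at −0.08 and −0.13. Both shrank to −0.02 under an alternative setting, without a change of sign.

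The largest siRNA difference in Huh7 was that of FOXA3, whose log2 difference was −0.55, which left 67.5% of its TPM. PROX1 followed at −0.48 with 71.2% left, and FOXA2 at −0.38 with 76.6% left. Of all tested genes, 3.06%, 4.88% and 7.77% had a lower log2 difference than these. The difference was −0.29 for ONECUT2, −0.21 for ONECUT1, −0.16 for GATA4, −0.13 for HNF4A and −0.08 for FOXA1. The median of the 8 was −0.25, beside −0.00083 for all tested genes, whose central 90% ran from −0.47 to 0.45. FOXA3 and PROX1 lay outside that range and the other 6 inside it.

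In HepG2, HNF4A had the largest siRNA difference, 0.37, and 93.5% of tested genes had a lower one. FOXA3 was at 0.17, ONECUT2 at 0.15, GATA4 at 0.15, FOXA2 at 0.02 and PROX1 at 0.0014, while FOXA1 was at −0.03. The median of the 7 tested was 0.15, or 0.074 with coverage scaled for depth in place of TPM, beside −0.0080 for all tested genes, whose central 90% ran from −0.41 to 0.43. All 7 lay inside that range. The values of FOXA1, FOXA2 and PROX1 in HepG2 are too near 0 to give a direction, and those of FOXA2 and PROX1 changed sign under 1 and 2 of the alternative settings.

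**Figure D4:**
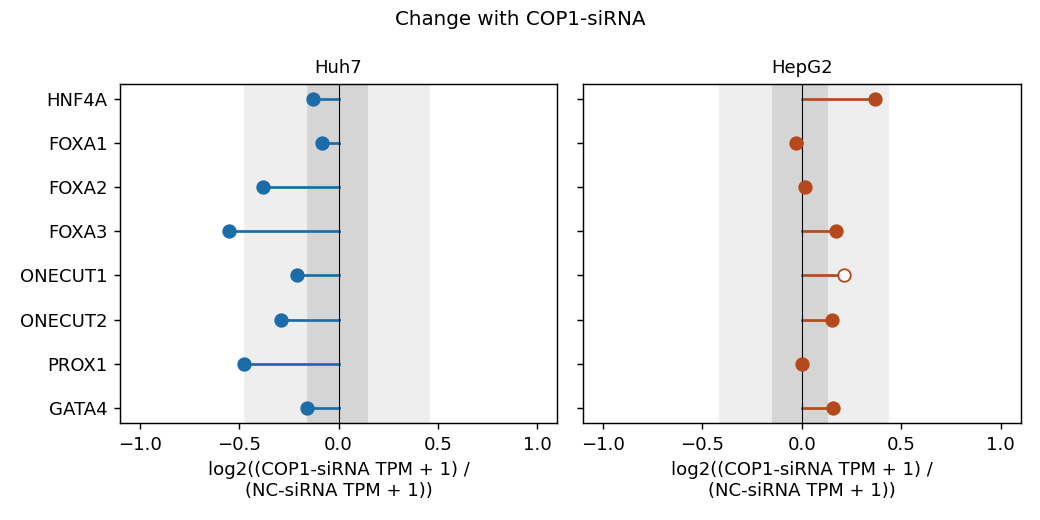
Log2 difference of each factor between COP1-siRNA and NC-siRNA in Huh7 (left) and HepG2 (right). Dark and light bands hold the central 50% and 90% of all tested genes, and the open circle is ONECUT1, which was under 1 TPM in both HepG2 libraries. Points in Huh7 run from −0.55 to −0.08 and those tested in HepG2 from −0.03 to 0.37.

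The Huh7 and HepG2 siRNA comparisons share no library. Of the 7 factors tested in both, 6 were lower with COP1-siRNA in Huh7 and higher in HepG2 by any amount, as were 19.8% of 11970 genes tested in both. For FOXA2 and PROX1, which are among the 6, the HepG2 values of 0.02 and 0.0014 give no direction. The Huh7 value of HNF4A, also among the 6, was −0.13 and shrank to −0.02 under an alternative setting. The log2 difference was lower in Huh7 than in HepG2 for 7 of 7, against 51.1% of those genes. The gap between the lines was −0.72 for FOXA3, −0.50 for HNF4A, −0.48 for PROX1, −0.44 for ONECUT2, −0.40 for FOXA2, −0.31 for GATA4 and −0.05 for FOXA1. The median gap was −0.44, beside −0.0065 over all genes tested in both. FOXA1 thus kept nearly the same level with either siRNA in both lines. By construction the same gaps separate the 2 line differences, so that the lines stood somewhat closer together with COP1-siRNA.

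Other genes of the liver programme were examined as lists. For the counts below, 50.1% of all tested genes were below 0 with COP1-siRNA in Huh7 and 48.3% above 0 in HepG2. Between the lines with NC-siRNA, 14.7% of all tested genes were called higher in Huh7 and 27.9% lower. Of 26 other liver transcription factors, such as nuclear receptors and C/EBP factors, 23 were tested in Huh7 for the siRNA, of which 0 rose and 0 fell past 2-fold, 18 had values below 0 and the median was −0.27. In HepG2, 21 were tested, 0 rose and 0 fell, 15 had values above 0 and the median was 0.13. Between the lines with NC-siRNA, 11 of 23 were higher in Huh7 and 2 lower. NR5A2, a nuclear receptor of bile acid and cholesterol genes, was at 33.5 and 27.6 TPM in Huh7 and 1.07 and 1.02 TPM in HepG2. NR1H4, the bile acid receptor FXR, was at 93.2 and 77.3 TPM in Huh7 and 6.11 and 7.57 TPM in HepG2. CREB3L3, a membrane-bound activator of lipid and acute-phase genes, was at 38.0 and 27.7 TPM and 2.62 and 4.74 TPM. NR0B2, the repressor SHP that FXR induces, had the opposite order, with 5.80 and 3.01 TPM in Huh7 and 22.5 and 23.8 TPM in HepG2. The list was therefore mixed in direction. Its median log2 difference was 0.47 with NC-siRNA and 0.78 with COP1-siRNA, and 1.70 and 1.56 when only genes that reached 5 TPM were counted.

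Of 10 cofactors that bind these factors, 0 of 9 tested in Huh7 and 0 of 10 tested in HepG2 were past 2-fold with COP1-siRNA, with medians of −0.10 and 0.04. Values were below 0 for 8 of 9 in Huh7, against 50.1% of tested genes, and above 0 for 6 of 10 in HepG2, against 48.3%. Between the lines, 0 of 10 were higher in Huh7 and 2 were lower with either siRNA, where 27.9% of all tested genes were lower with NC-siRNA and 26.0% with COP1-siRNA. The GATA cofactor ZFPM1 lay just under 2-fold with NC-siRNA, at a log2 difference of 0.97, and passed it with a pseudocount of 0.1 (1.15) and with median-of-ratios (1.18) or upper-quartile (1.16) scaling. With median-of-ratios scaling NCOA2 passed it too. ZFPM2, also known as FOG2, the partner that binds the zinc finger of GATA4, was listed at 0 in both Huh7 libraries and at 3.08 and 3.002 TPM in HepG2. It met the 1 TPM minimum only through HepG2. Its lower call in Huh7 was lost with coverage scaled for depth and with a minimum of 5 TPM, with either siRNA. TLE3, a Groucho-type corepressor, was at 13.6 and 16.5 TPM in Huh7 and 54.6 and 56.4 TPM in HepG2.

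Of 36 liver function genes, whose promoters include many textbook targets of HNF4A and FOXA factors, 28 were tested in Huh7 and 0 rose or fell with COP1-siRNA (1, HPD, was higher with a pseudocount of 0.1), with 21 values below 0 and a median of −0.08. In HepG2, 25 were tested, 3 rose and 0 fell, 23 had values above 0 and the median was 0.34. Of all genes tested in HepG2, 0.540% rose, 48.3% were above 0 and the median was −0.0080. The 3 that rose were the fibrinogen chains of the clotting system. FGA went from 18.997 to 41.5 TPM, FGB from 6.97 to 15.5 TPM and FGG from 34.4 to 71.7 TPM. With FPKM in place of TPM and the same pseudocount of 1, FGA alone stayed past 2-fold, at a log2 difference of 1.02. FGB was then at 0.93 and FGG at 0.99. FPKM is proportional to TPM within a library but smaller, so the pseudocount weighs more there. With a pseudocount of 0.1 on TPM, all 3 fibrinogen genes passed it, at 1.12, 1.14 and 1.06. In Huh7 they were at 2068 and 1934 TPM, 2461 and 2403 TPM, and 1577 and 1674 TPM. The list was mostly higher in Huh7, with 17 of 28 higher and 4 lower with NC-siRNA. HPD, an enzyme of tyrosine breakdown, was an exception at 0.530 and 1.20 TPM in Huh7 and 58.5 and 80.8 TPM in HepG2. ALB, the albumin gene by which hepatocyte-type cells are known, was at 8117 and 6683 TPM in Huh7 and 1509 and 1598 TPM in HepG2, whereas the adult liver genes CYP3A4 and SLC10A1 were listed at 0 in all 4 libraries.

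**Figure D5:**
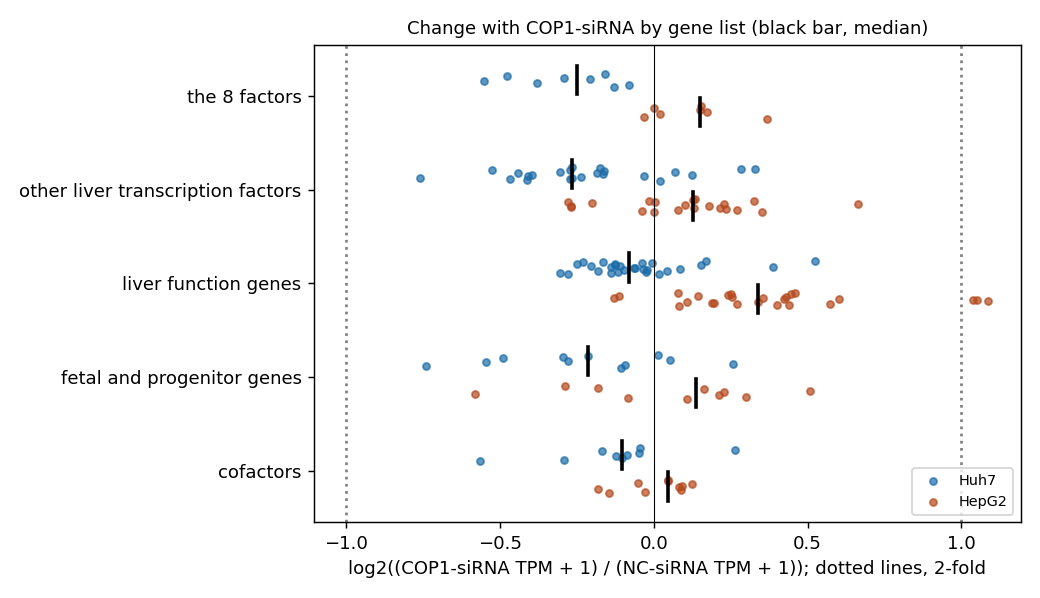
Log2 difference between COP1-siRNA and NC-siRNA for every tested gene of 5 lists in Huh7 (blue) and HepG2 (orange), with a black bar at each median and dotted lines at 2-fold. The medians of the 8 factors are −0.25 in Huh7 and 0.15 in HepG2, and the 3 points beyond 2-fold are the fibrinogen genes in HepG2.

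Fetal and progenitor genes, which the early liver shares with liver tumours, were also mostly high in Huh7. With NC-siRNA, 7 of 11 tested were higher and 0 lower, with a median log2 difference of 1.51. AFP, the fetal counterpart of albumin, was at 7444 and 6907 TPM in Huh7 and 370.3 and 399 TPM in HepG2. CD24, a surface protein of progenitor cells, was at 804 and 693 TPM and 4.78 and 3.74 TPM. None of these genes was past 2-fold with COP1-siRNA, with medians of −0.21 over 11 tested in Huh7 and 0.14 over 10 in HepG2. Values were below 0 for 8 of 11 in Huh7, against 50.1% of tested genes, and above 0 for 6 of 10 in HepG2, against 48.3%. Biliary genes, which ONECUT1 helps to set, were mixed between the lines with NC-siRNA, with 3 of 5 higher in Huh7 and 1 lower. KRT19, a keratin of bile duct cells, was at 200 and 207 TPM in Huh7 and 53.2 and 76.1 TPM in HepG2, and SPP1, osteopontin, at 3.94 and 4.23 TPM and 544 and 509 TPM.

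The tested factors of the other endoderm organs were lower in Huh7, the opposite order to the 8 liver factors, but the filter fixed most of these directions. Of 8 listed, 4 were tested between the lines, and with either siRNA 0 were higher and 4 lower in Huh7, with medians of −2.39 and −2.46. SOX2, NKX6-1 and PDX1 met the 1 TPM minimum only through HepG2, so they could not have been called higher in Huh7. Only CDX2 reached 1 TPM in both lines. The size of these medians rests on genes near 0 in Huh7: they were −5.36 and −4.79 with a pseudocount of 0.1, −1.70 and −1.61 with FPKM, and −1.25 and −0.98 over all 8 genes with no minimum. SOX2, a factor of the foregut and of pluripotent cells, was at 0.0183 and 0.118 TPM in Huh7 and 6.96 and 7.60 TPM in HepG2. The pancreas factors NKX6-1 and PDX1 were at most 0.0478 TPM in Huh7 and at 6.30 and 9.29 TPM and 2.74 and 3.12 TPM in HepG2. CDX2, a factor of the intestine, was at 8.28 and 10.1 TPM in Huh7 and 26.3 and 26.2 TPM in HepG2.

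Several defining markers of other cell types were absent, and others were expressed. Immune markers PTPRC, CD3E and MS4A1 and the stellate and sinusoid markers DCN and STAB2 were listed at 0 in all 4 libraries. The summed level of 10 mesenchymal genes was 620 and 800 TPM in Huh7 and 662 and 900 TPM in HepG2, that of 6 endothelial genes 5.28 and 7.50 TPM and 0.438 and 0.797 TPM, and that of 7 immune genes 208 and 177 TPM and 209 and 169 TPM. Most of the mesenchymal sum was VIM, vimentin, at 496 to 878 TPM, and most of the immune sum was LYZ, lysozyme, at 119 to 192 TPM. With NC-siRNA, 1 of 5 tested mesenchymal genes was higher in Huh7 and 2 lower, 1 of 1 endothelial gene was higher, and 2 of 4 immune genes were higher and 1 lower. LUM, lumican, was higher in Huh7 like the 8 factors, at 121 TPM in both Huh7 libraries and 0.194 and 0.153 TPM in HepG2. Unlike them, it was not lower with COP1-siRNA in Huh7. ACTA2, smooth muscle actin, had the opposite order between the lines, at 0 in both Huh7 libraries and 11.1 and 15.4 TPM in HepG2. None of the tested biliary, endoderm, mesenchymal, endothelial and immune genes was past 2-fold with COP1-siRNA in either line, except that CD79A in HepG2 passed it with a pseudocount of 0.1, and no endothelial gene reached 1 TPM in HepG2. The part of the other cell types' markers in the difference between the lines was not tested.

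The genes whose pattern over the 4 libraries was most like each factor were found by distance between centred log2(TPM + 1) values among 15392 genes. With only 4 libraries of 2 lines, such likeness mainly restates the gap between the lines. The nearest gene was AKR1C4, a steroid-reducing enzyme, for HNF4A (distance 0.03) and the noncoding LINC01608 for FOXA2 (0.03). In HepG2, AKR1C4 was at 0 and 0.310 TPM with NC-siRNA and COP1-siRNA, and LINC01608 was at 0 in both libraries. These 2 small distances therefore rest on the pseudocount, and the plain TPM ratios between the lines differ from those of the factors. The nearest gene was GREB1L for FOXA1 (0.02), PTPN3 for GATA4 (0.04), DTX3L for ONECUT2 (0.03) and EPS8L3 for ONECUT1 (0.05), and CDH12 for FOXA3 and CHKA for PROX1 (both 0.12). CDH12 too was under 1 TPM in HepG2, at 0.255 and 0.378 TPM. Within a distance of 0.25 there were 286 genes for FOXA1 and 279 for GATA4, but 10 for FOXA2 and 11 for FOXA3, so the patterns of FOXA2 and FOXA3 were shared by the fewest genes. Among the 8 themselves, FOXA1 and GATA4 were the closest pair at 0.16, and the nearest member to FOXA2 was FOXA3 at 0.87.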

How the data were processed

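Stranded libraries of polyadenylated RNA were sequenced from Huh7 and HepG2, 1 per line and siRNA, and all 4 carry the same batch label. The authors deposited 1 gene table per library. Deposited TPM values are scaled for length and sum to 1000000 per library. The deposited FPKM values are proportional to the TPM within a library, and the deposited coverage is the average read depth along a gene, not scaled for sequencing depth. The submitters' processing notes name FastQC 0.11.7, Trimmomatic 0.38, HISAT2 2.1.0, StringTie 2.1.3b, edgeR and the build GRCh38, without their roles. The annotation is not given in the sources used here. Read numbers are unknown, so no interval could be computed. The median ratio of coverage to FPKM, a measure of relative depth, was 4.82 to 6.23.

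Gene symbols were assigned by Gene ID from RefSeq GRCh38.p14, which matched 44698 of 46427 IDs (96.3%), since the name column of the tables was empty. IDs on more than 1 row (49 to 51 per library) were summed. No member was affected, and 4 of 136 other listed genes were not matched. The pseudocount was 1, the minimum 1 TPM and the threshold 2-fold. The authors' own p-value criterion was not used, because no condition had a second library. The members and lists were chosen with earlier results of these data known. Genes named in the text were taken from the 8 members, COP1, genes overlapping a member, paralogues and neighbouring noncoding genes with at least 1 TPM, listed genes past 2-fold with COP1-siRNA, up to 4 listed genes per direction with the largest difference in both comparisons between lines, and up to 3 genes nearest in pattern to each member. ALB, ZFPM1, NCOA2, CYP3A4, SLC10A1, ONECUT3 VIM, LYZ and the markers at 0 were named after their values were seen. Alternatives were a pseudocount of 0.1, FPKM, coverage scaled for depth, median-of-ratios and upper-quartile scaling, no minimum, a minimum of 5 TPM, repeated IDs kept apart and a 1.5-fold threshold. FPKM was used with the same pseudocount of 1, which on that smaller scale acts mainly as a larger pseudocount. The computation was tested on simulated data with large changes in well-expressed genes only. That test does not bear on small differences or low levels. Python 3.11.15, numpy 2.4.6, pandas 2.3.3 and matplotlib 3.10.9 were used.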

Additional observations from a re-analysis of the deposited data

Results flagged for a closer look

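For 6 factors the level with COP1-siRNA was lower than with NC-siRNA in Huh7 and higher in HepG2, and each is listed because its values went opposite ways in the 2 lines. With 1 library per condition the difference was not tested. The log2 difference in Huh7 minus that in HepG2 was −0.72 for FOXA3, −0.50 for HNF4A, −0.48 for PROX1, −0.44 for ONECUT2, −0.40 for FOXA2 and −0.31 for GATA4. For PROX1 and FOXA2 the HepG2 values behind it were 0.0014 and 0.02. For HNF4A the Huh7 value was −0.13, and −0.02 with coverage scaled for depth, so most of its gap came from the 0.37 in HepG2.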

How the results depend on the processing

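No paired analysis was possible because each condition had 1 library and the labels carry no replicate numbers, and for the same reason no library could be left out. All 8 factors stayed at least 2-fold higher in Huh7 with either siRNA, and 0 passed 2-fold with COP1-siRNA, under every alternative run. Between the lines, ONECUT1 met the 1 TPM minimum only through Huh7. All 8 values in Huh7 stayed below 0 with COP1-siRNA. That of HNF4A ran from −0.13 to −0.02, the latter with coverage scaled for depth, and that of FOXA1 from −0.08 to −0.02. The median of the 7 tested in HepG2 ran from 0.074 with scaled coverage to 0.17 with upper-quartile scaling, and FOXA1, FOXA2 and PROX1 were below 0 with scaled coverage. The median difference of the 8 between the lines, 2.91 with NC-siRNA, was 2.44 with FPKM and 2.55 with scaled coverage, and that with COP1-siRNA, 2.42, was 2.12 with FPKM. Median-of-ratios and upper-quartile scaling moved the median of all genes between the lines with NC-siRNA from −0.37 to −0.14 and −0.17, and that of the 8 to 3.14 and 3.11.

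The number of all genes past 2-fold with COP1-siRNA depended on the setting. A pseudocount of 0.1, FPKM and a 1.5-fold threshold gave 249, 33 and 364 genes higher in Huh7 in place of 83, 141, 24 and 349 lower in place of 58, 227, 21 and 370 higher in HepG2 in place of 78, and 145, 18 and 270 lower in place of 57. A minimum of 5 TPM gave 34 higher in Huh7, 29 higher and 26 lower in HepG2, and 2795 and 2592 lower in Huh7 than in HepG2 with NC-siRNA and COP1-siRNA, in place of 4194 and 3937. A 1.5-fold threshold gave 6150 for the last of these. The minimum of 5 TPM also moved the share of higher calls in Huh7 from 58.9% to 44.7%. The median of the endothelial genes between the lines, which rested on 1 gene, went from 2.57 to −0.039 with NC-siRNA and from 2.88 to −0.12 with COP1-siRNA when no minimum was set and all 6 were counted.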
